A study of Mus musculus with 6 samples.

Results

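ENSMUSG00000119584 was the most counted gene ID when RNA of quiescent mouse neural progenitor cells was pulled down on streptavidin. It is 1 of 55416 gene rows and was chosen by its counts summed over all 6 libraries, so its abundance is given as a description, with no test. It held 8285366 counts, or 13.5% of all counts, and the next ID, Malat1, held 1536148. The ID carries no gene symbol in the tables used: it had 0 entries in the gene name table, in the RefSeq gene and promoter tables and in the annotation and transcripts of GENCODE M21. The name of the deposited sheet points to an Ensembl release (e104) whose annotation was not used here, so no name, class, position or sequence is given for the ID.

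All cells came from embryonic mouse brain and were kept quiescent in medium that held 2 growth factors, 10 ng/ml of FGF2 and 20 ng/ml of BMP4. The EU group (n = 3 libraries) received 5-ethynyluridine at 250 µM on day 1 of quiescence and the PBS group (n = 3) received the vehicle. Both were harvested on day 8 and went through the same biotin coupling and streptavidin pulldown, so PBS libraries measure what binds without label. The labels do not say whether replicates were separate cultures, and p-values then measure only the spread between these libraries, which may be technical.

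EU is a uridine analogue that is built into RNA while it is made, and a click reaction then attaches biotin to it, so that RNA made during the pulse can be drawn from total RNA later. Total RNA libraries hold polyadenylated messages as well as structural RNAs, such as the ribosomal RNAs of mitochondria. A library is sequenced to a limited depth, so 1 very abundant RNA lowers the share left for every other RNA. Scaling methods such as TMM (trimmed mean of M-values) estimate how the bulk of genes shifted and leave the extremes out of that estimate.

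Library totals ran from 9564856 to 26479031 counts in EU and from 413181 to 729649 in PBS. A count of 3 was worth 0.113 to 0.314 CPM (counts scaled to a common library total) in EU and 4.11 to 7.26 CPM in PBS. Of the markers of the labelled cell type, all 8 progenitor genes had counts in both groups and summed to 4574 to 4757 CPM in EU and 5372 to 6227 CPM in PBS. Astrocyte markers summed to 1754 to 3275 CPM in EU and 4144 to 11195 CPM in PBS. Of these, Gfap averaged 301 CPM in EU and 3674 in PBS and Aqp4 612 and 1458, while Aldoc averaged 1459 and 1478 and Aldh1l1 85.4 and 85.6, and 3 of the 5 had a positive log2 fold. Neuron markers summed to 29.0 to 64.1 and 24.7 to 239 CPM, and oligodendrocyte lineage markers to 209 to 352 and 185 to 270 CPM. Microglia markers reached at most 1.54 CPM and vascular or fibroblast markers at most 3.09 CPM in any library. Aif1, Cx3cr1, Csf1r and C1qa of the microglia list had no count in any library, nor did Cldn5 and Col3a1 of the vascular or fibroblast list. Pecam1 and Col1a1 of that list and Snap25 of the neuron list had counts in EU but none in PBS. The part of other cell types in the values below was not tested.

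ENSMUSG00000119584 was the most abundant row in each of the 6 libraries, with and without EU. Its counts were 2020266, 2553000 and 3411823 in EU replicates 1 to 3 and 128239, 54413 and 117625 in PBS replicates 1 to 3. The mean count was 26.6 times higher in EU. Every EU library therefore held more counts of the row than any PBS library, as it also held more counts in all, with totals 33.3 times higher on average. Without the row, the totals differed 34.6-fold.

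As a share of the library, the row measured 21.1%, 9.64% and 14.5% in EU replicates 1 to 3 and 19.8%, 13.2% and 16.1% in PBS replicates 1 to 3. The groups overlapped, the EU libraries enclosed all PBS values, and replicate 1 was the highest and replicate 2 the lowest in both groups. The mean share was 15.1% ± 5.76 in EU and 16.4% ± 3.33 in PBS (SD, n = 3), a difference of -1.28 percentage points (two-sided exact permutation test, p = 0.8, where 3 against 3 libraries can give no value below 0.1). The share differed 2.19-fold between the highest and the lowest EU library and 1.5-fold between the PBS libraries. Counting error was far smaller than this spread. The widest exact Clopper-Pearson 95% interval, in PBS replicate 2, ran from 13.1% to 13.3% and covers counting error only. The sign of the difference turned without EU replicate 2 (1.45 percentage points) and without PBS replicate 1 (0.44).

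**Figure D1:**
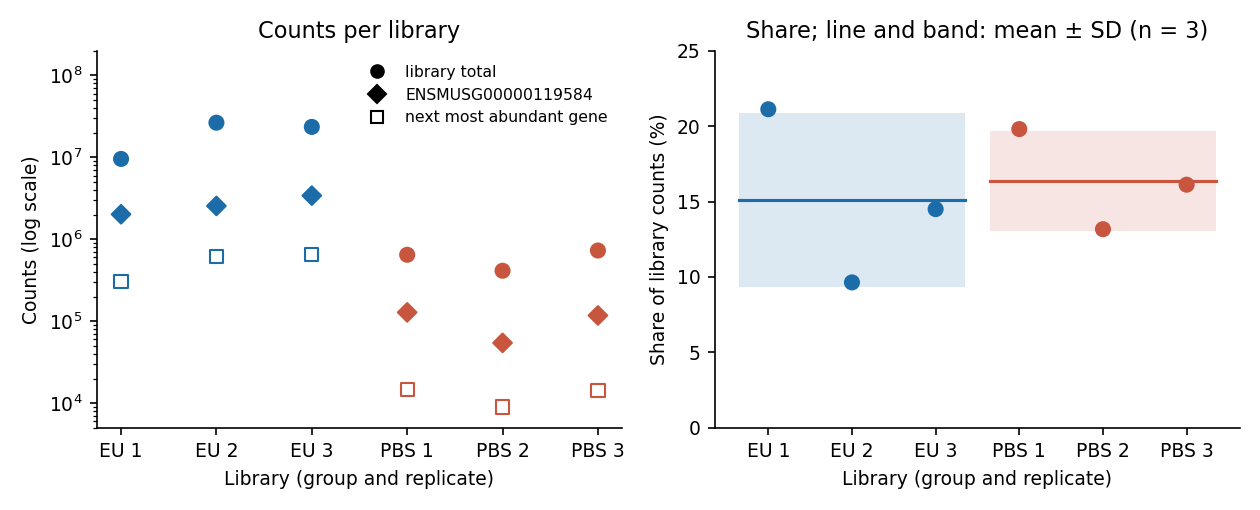
Left, library total, counts of ENSMUSG00000119584 and counts of the next most abundant gene in each library, on a log axis. Right, the share of library counts held by ENSMUSG00000119584 in percent, with a point per library and the group mean ± SD (n = 3) as line and band: the EU points span 9.64% to 21.1% and the PBS points, 13.2% to 19.8%, lie inside that range.

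Scaled by TMM factors, the row showed no difference beyond its error. Its log2 fold, EU over PBS, was 0.10 ± 0.46 (SE; edgeR quasi-likelihood test with Benjamini-Hochberg adjustment, adjusted p = 0.952), with a 95% interval from -0.97 to 1.16, and the sign turned with library size alone (-0.12) and with RLE factors (-0.00027). As a ratio of EU to PBS the interval ran from 0.511 to 2.23, so the test does not show equal levels. The median log2 fold of the 12477 tested genes was 0.15 with TMM factors. In that test 3 genes passed at an adjusted p below 0.05, 0.024% of those tested, all lower in EU. They were the gene models Gm10800, Gm10801 and Gm10718, and no gene passed once any PBS replicate was left out. At an unadjusted p below 0.05 edgeR had 1617 genes higher and 531 lower, and adjusted calls numbered 493 and 435 with DESeq2 and 222 and 25 with limma-voom.

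The row stood far above the genes next to it in abundance. It held 6.58, 4.14 and 5.26 times the counts of the next gene in EU replicates 1 to 3, which were mt-Rnr1, Ncan and Malat1, and 8.74, 6.06 and 8.15 times those of Malat1 in PBS replicates 1 to 3. It took the 36, 7 and 12 next most abundant genes together to match the row in EU replicates 1 to 3, and 55, 21 and 29 in the PBS replicates. The 10 genes next in abundance held 13.2% ± 1.30 of EU counts and 9.42% ± 0.470 of PBS counts in sum (SD, n = 3). They are Malat1, a nuclear long noncoding RNA, the mitochondrial ribosomal RNAs mt-Rnr1 and mt-Rnr2, the mitochondrial messages mt-Co1, mt-Cytb, mt-Nd5 and mt-Nd2, the matrix proteoglycan gene Ncan, Sparcl1, which encodes a secreted matrix-associated glycoprotein, and Ckb, the brain creatine kinase.

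**Figure D2:**
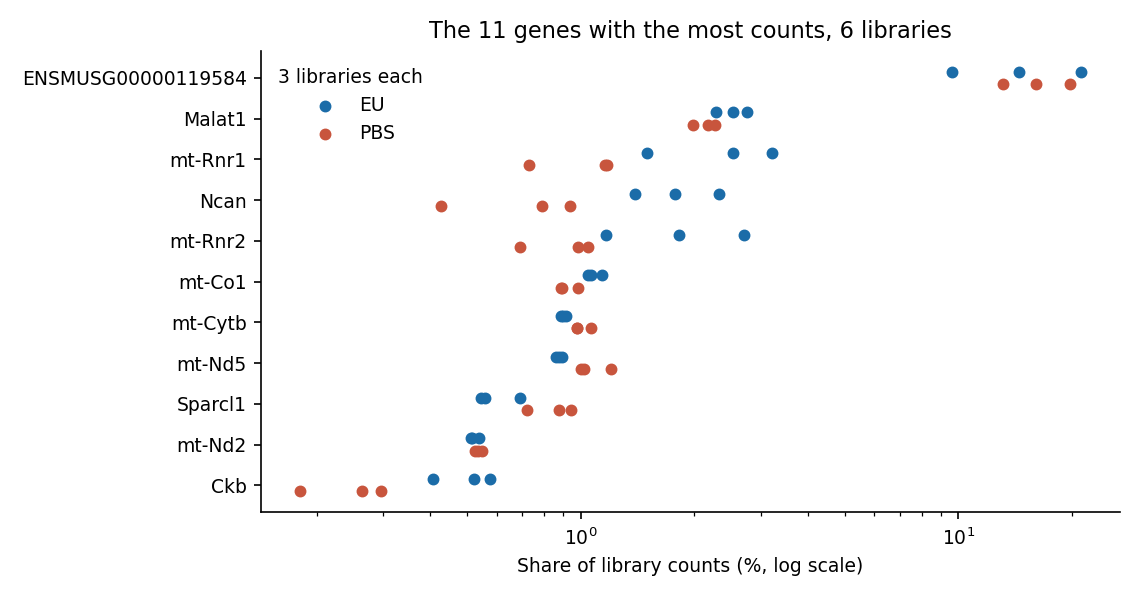
Share of library counts in percent (log axis) for the 11 genes with the most counts over the 6 libraries, with 3 EU points and 3 PBS points per gene. ENSMUSG00000119584 lies between 9.64% and 21.1%, and no other gene passes 3.21% in any library.

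Among those 10 genes, the 2 mitochondrial ribosomal RNAs kept the steadiest ratio to the row within a group. The row held 7.78, 8.26 and 7.97 counts per count of mt-Rnr2, the large-subunit ribosomal RNA of mitochondria, in EU replicates 1 to 3, and 18.9, 19.1 and 16.3 in PBS replicates 1 to 3. The ratio varied by 3.01% within EU and by 8.46% within PBS (coefficient of variation), whereas the share of the row varied by 38.2% and 20.3%. The ratio to mt-Rnr1, the small-subunit ribosomal RNA, was 6.58, 6.43 and 5.74 in EU and 16.9, 18.0 and 13.9 in PBS.

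For both mitochondrial ribosomal RNAs the PBS ratios lay above every EU ratio. The mean ratio to mt-Rnr2 was 8.00 ± 0.241 in EU and 18.1 ± 1.53 in PBS (SD, n = 3), 2.26 times higher in PBS, and that to mt-Rnr1 6.25 ± 0.450 and 16.3 ± 2.11, 2.60 times higher (two-sided exact permutation test, p = 0.1 each). Adjusted over the 10 ratios both values became 0.5. The shares of the mitochondrial RNAs themselves did not overlap between the groups, as was the case for 24.5% of tested genes. Those shares were 2.72%, 1.17% and 1.82% in EU against 1.05%, 0.691% and 0.986% in PBS for mt-Rnr2, and 3.21%, 1.5% and 2.53% against 1.17%, 0.731% and 1.16% for mt-Rnr1. Of the counts outside the row, mt-Rnr2 took 1.29% to 3.44% in EU and 0.796% to 1.30% in PBS, so the groups overlapped. For mt-Rnr1 they stayed apart. The log2 folds of mt-Rnr2 and mt-Rnr1 were 1.28 ± 0.43 and 1.45 ± 0.42 (SE, edgeR adjusted p = 0.152 and 0.107). In other edgeR fits the calls differed: both passed with the replicate number as a block and without a low-count filter. Reads of these genes can also match mitochondrial insertions in nuclear chromosomes, which makes their counts uncertain.

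The other 8 ratios were less steady. The ratio to Malat1 was 8.32, 4.21 and 5.26 in EU and 8.74, 6.06 and 8.15 in PBS, overlapping between the groups (exact permutation p = 0.3, adjusted over the 10 ratios 0.6). The ratio to Ncan was 15.2, 4.14 and 8.17 in EU and 46.3, 14.0 and 20.4 in PBS. The ratio to mt-Cytb, a message from the same genome as mt-Rnr2, was 23.1, 10.9 and 16.1 in EU and 20.2, 13.5 and 15.2 in PBS. The share of mt-Cytb itself lay between 0.888% and 0.913% in EU. The coefficient of variation of these 8 ratios was 36.0% to 61.0% within EU and 18.4% to 63.5% within PBS.

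**Figure D3:**
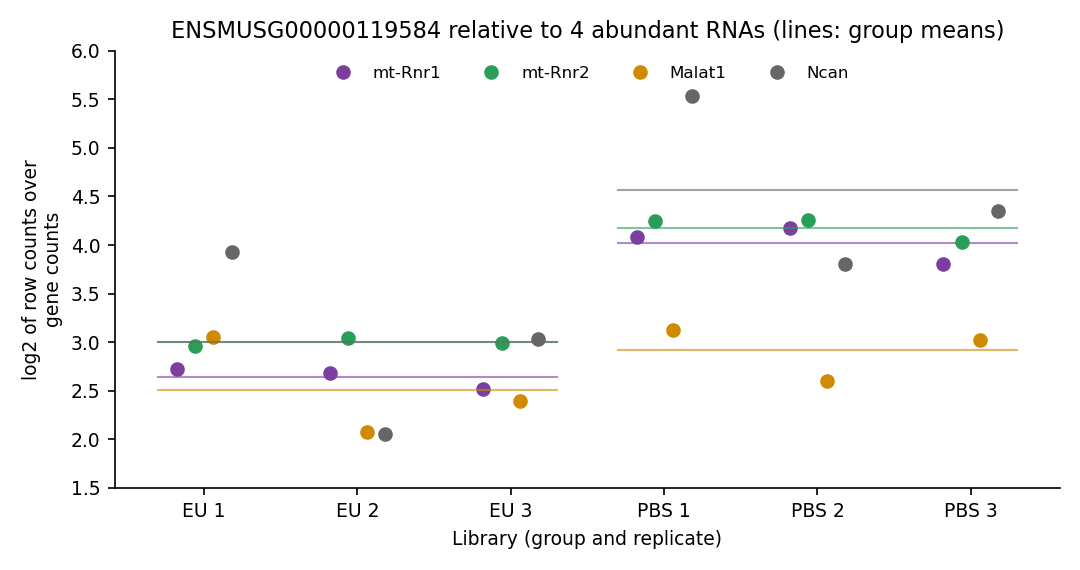
Log2 of the counts of ENSMUSG00000119584 over the counts of mt-Rnr1, mt-Rnr2, Malat1 and Ncan in each library, with a horizontal line at each group mean (n = 3). The points of mt-Rnr2 lie close together within each group, at 7.78 to 8.26 counts per count in EU and 16.3 to 19.1 in PBS, while those of Ncan spread from 4.14 to 15.2 and from 14.0 to 46.3.

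This steadiness was compared across 3429 tested genes with a mean of at least 50 CPM, a comparison chosen after the ratios were seen. By the SD of the log2 ratio within groups, mt-Rnr2 ranked 1 (0.09) and mt-Rnr1 ranked 7 (0.16), with a median of 0.74 over all these genes. Between them stood Cpe, a carboxypeptidase that processes peptide precursors, at 0.10, and Rapgef3, Ttyh1, Sox9 and Plxnd1 at 0.12, 0.13, 0.16 and 0.16. Among the 65 genes with a mean of at least 1000 CPM, mt-Rnr2 ranked 1, Cpe 2 and mt-Rnr1 3, while Malat1 ranked 24 and Ncan 63.

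Over all 6 libraries, the genes whose levels ran closest to the row were Il6st, Txnip, Aldoc, Igsf11 and Mt1. Likeness was the root mean square difference of log2 CPM, each gene centred on its own mean. It was 0.13 for Il6st and 0.16, 0.16, 0.17 and 0.19 for the others in that order, with a median of 0.67 over the genes compared. These are descriptions over 6 libraries that share their depth and, within a group, their treatment. Il6st, the shared signalling receptor of the interleukin 6 family, measured 727, 412 and 535 CPM in EU and 851, 459.8 and 584 CPM in PBS. Like the row, it was highest in replicate 1 and lowest in replicate 2 of both groups. Txnip, an inhibitor of thioredoxin, measured 159, 71.6 and 133 CPM in EU and 176, 89.5 and 115 CPM in PBS. The glycolytic enzyme gene Aldoc, an astrocyte marker, measured 1838, 1027 and 1513 CPM in EU and 1938, 1251 and 1243 CPM in PBS. Igsf11, an adhesion protein gene, measured 434, 260.2 and 386 CPM in EU and 473, 339 and 487 CPM in PBS. Mt1, a metallothionein, measured 2779, 1229 and 2726 CPM in EU and 2842, 1956 and 2683 CPM in PBS. EU replicate 2 was the lowest of the EU libraries for all 5 genes and the groups overlapped for all 5, a pattern that choosing them for likeness to the row brings with it. In bulk libraries fewer cells of a type and less RNA per cell cannot be told apart.

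Outside the mitochondrial genome, the rows that GENCODE M21 classes as ribosomal RNA held few counts. Of 354 IDs in that class, 13 are rows of the table and 4 had any count, with 43 counts in EU and 21 in PBS over all libraries. All 4 are 5S ribosomal RNA genes, n-R5s204 with 1, 18 and 4 counts in EU and 21, 0 and 0 in PBS, n-R5s33 with 3, 7 and 7 in EU, n-R5s85 with 0, 1 and 1 in EU and n-R5s41 with 1 in EU replicate 2, the last 3 with none in PBS. The IDs that this release gives to Gm42418, AY036118, CT010467.1 and Gm26917 are not rows. RefSeq lists Gm42418 as a synonym of a ribosomal RNA related sequence. Under which rows reads from these models were counted was not tested. Gm15564 held 432, 371 and 586 counts in EU and 97, 31 and 125 in PBS, at 28.0 ± 15.8 and 132 ± 50.5 CPM (SD over 3 libraries). Its log2 fold was -2.02 ± 0.58 (SE; adjusted p = 0.10 in edgeR's test), and it passed with DESeq2 (-2.11 ± 0.63, adjusted p = 0.021). Lars2, the mitochondrial leucyl-tRNA synthetase gene, held 4301, 8227 and 10067 counts in EU and 667, 202 and 424 in PBS (396 ± 74.7 and 700.1 ± 290 CPM; edgeR adjusted p = 0.469).

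Other structural RNAs were low beside the row. The Y RNA Rny3 had 170, 93 and 186 counts in EU and 50, 4 and 5 in PBS, and Rny1 had 89, 41 and 97 in EU and 43, 0 and 5 in PBS. Rn7s6, a 7S RNA gene, had 49, 43 and 57 in EU and 13, 4 and 11 in PBS. Rpph1, the RNA of ribonuclease P, had 3, 12 and 21 counts in EU and none in PBS, where up to 3 counts per library, 4.11 to 7.26 CPM, could have been missed. Snord118 had 7, 5 and 4 counts in EU and 1, 0 and 0 in PBS, and Snord13 had 2 counts, both in EU replicate 2. All 3 tested genes of this list had a negative log2 fold (median -2.09, against 0.15 over all tested genes). At an unadjusted p below 0.05 in edgeR 1 of them was lower, as were 4.26% of all tested genes. None passed after adjustment in edgeR, DESeq2 or limma-voom, where 0.024%, 3.49% and 0.2% of all tested genes were lower. Of 7 tested nuclear long noncoding RNAs, Malat1 among them, 2 were positive (median -0.96). Of these 7, 4 were lower in edgeR at an unadjusted p below 0.05, as were 4.26% of all tested genes. None passed in the main edgeR fit, which used the low-count filter, or in limma-voom. DESeq2 called 3 lower, against 3.49% of all tested genes. Malat1 itself passed as higher in edgeR without the filter.

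Genes for making and processing ribosomal RNA, and the proteins of the small ribosomal subunit, were measured beside the row from lists chosen with earlier results of these data known. None of their members passed in edgeR's test in either direction, where 0 of all 12477 tested genes passed as higher and 3 (0.024%) as lower. Of 22 tested genes listed for RNA polymerase I transcription, 12 had a positive log2 fold and the median was 0.37. Of 45 genes of small-subunit ribosomal RNA processing, 23 were positive (median 0.03), and of 32 small-subunit protein genes 12 were positive (median -0.05). All tested genes had a median of 0.15. At an unadjusted p below 0.05 in edgeR the 3 lists had 2, 3 and 1 genes higher and 0, 2 and 0 lower, where 13.0% of all tested genes were higher and 4.26% lower. After adjustment, DESeq2 called 0, 1 and 1 genes higher and 0, 1 and 0 lower (3.95% and 3.49% of all tested genes). With limma-voom 0, 1 and 0 were higher and none lower (1.78% and 0.2% of all tested genes). Summed over the polymerase I list, EU libraries held 954 ± 313 CPM and PBS libraries 892 ± 135 (exact permutation p = 0.9). The 4 most counted members of that list, Top2a, Top1, Kdm2a and Smarca5, do not encode polymerase I subunits. Top2a alone measured 59.6, 339 and 72.7 CPM in EU replicates 1 to 3 and 38.6, 94.4 and 79.5 CPM in PBS replicates 1 to 3. Over the processing genes, EU libraries held 1137 ± 308 CPM and PBS libraries 1493 ± 162 (SD over 3 libraries, exact permutation p = 0.2), and the groups overlapped. Once the row was left out of the totals they no longer did (1328 ± 274 and 1782 ± 123 CPM), as was the case for 25.8% of single tested genes. Over the protein genes the sums were 1889 ± 264 and 2205 ± 597 (exact permutation p = 0.7). Of the processing genes the most counted was Ncl, which encodes the nucleolar protein nucleolin. It measured 261 ± 101 and 436 ± 81.7 CPM without overlap between the groups, as for 24.5% of tested genes (edgeR adjusted p = 0.271). The next in counts, Utp14b, Npm1 and Nol6, overlapped between the groups, with log2 folds of 0.15, -0.45 and 0.68.

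Leaving the row out of the totals raised the CPM of every other gene by 26.8%, 10.7% and 17.0% in EU replicates 1 to 3 and by 24.7%, 15.2% and 19.2% in PBS replicates 1 to 3. The rise was largest in EU replicate 1 and smallest in EU replicate 2, so a gene with equal CPM in those 2 libraries differed 1.15-fold once the row was left out. EU libraries rose by 18.1% ± 8.12 on average and PBS libraries by 19.7% ± 4.78 (SD over 3 libraries, exact permutation p = 0.8). Across the 3429 genes with at least 50 CPM, the median SD of log2 CPM among the EU libraries was 0.24 with the row in the totals and 0.19 without it, and it fell for 71.5% of these genes. Among the PBS libraries it was 0.57 either way.

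The share of classes shifted with the denominator. Nuclear protein-coding genes took 64.3%, 79.3% and 72.2% of all counts in EU replicates 1 to 3 and 69.1%, 76.4% and 72.6% in PBS replicates 1 to 3. Of the counts outside the row they took 81.5%, 87.7% and 84.4% in EU and 86.1%, 88% and 86.5% in PBS. The EU mean was 71.9% ± 7.49 with the row and 84.5% ± 3.11 without it, and the PBS mean 72.7% ± 3.66 and 86.9% ± 0.972 (SD, n = 3). Genes of the mitochondrial genome took 8.61% ± 1.67 of EU and 6.32% ± 0.672 of PBS counts (exact permutation p = 0.1) with the groups apart, and 10.3% ± 2.67 and 7.57% ± 0.999 of the counts outside the row (exact permutation p = 0.3), where they overlapped. Malat1 changed in the same way. Its share of all counts was 2.54%, 2.29% and 2.76% in EU and 2.27%, 2.17% and 1.98% in PBS, without overlap, and its share outside the row was 3.22%, 2.53% and 3.23% in EU and 2.83%, 2.50% and 2.36% in PBS, with overlap. Across the 12476 other tested genes, 3059 had groups that did not overlap with the row in the totals and 3215 without it (25.8% of tested genes), and 2956 of them were the same genes.

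IDs without a symbol numbered 3333, and the row held 97.3% to 98.6% of their counts in each library. The IDs absent from GENCODE M21 were not the same set. Apart from the row they numbered 3280 and held 0.332% ± 0.0647 of EU counts and 0.226% ± 0.0486 of PBS counts (SD, n = 3).

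The effect on scaling depended on the method. TMM left the row out of its estimate in all 5 libraries compared with the reference library, where it ranked 1 by abundance. TMM factors changed from 0.832, 1.08 and 0.927 to 0.888, 1.0 and 0.912 in EU replicates 1 to 3 when the row was left out, and from 0.979, 1.15 and 1.07 to 1.03, 1.11 and 1.08 in PBS. The product of factor and total, relative to the other libraries, moved by no more than 0.0380% in any library, and no log2 fold of another gene moved by more than 0.00061. With library size alone the relative sizes moved by -6.30%, 7.34% and 1.56% in EU replicates 1 to 3 and by -4.74%, 3.15% and -0.361% in PBS. The median log2 fold of the other genes then moved by -0.03 and single genes by up to 0.13.

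**Figure D4:**
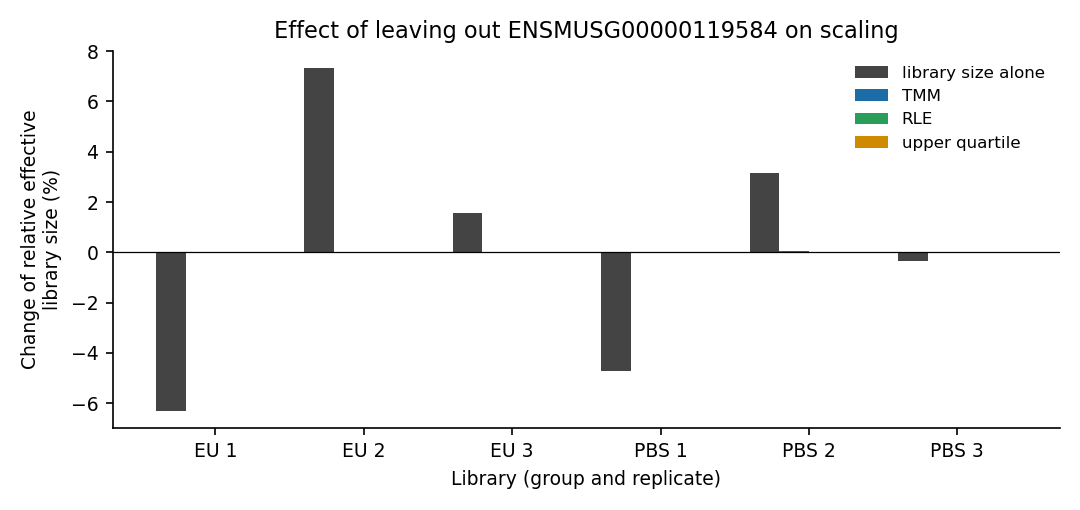
Change, in percent, of each library's effective size relative to the 6-library geometric mean when ENSMUSG00000119584 is left out, for 4 scaling methods. With library size alone EU replicate 1 changes by -6.30% and EU replicate 2 by 7.34%. With TMM, RLE or upper-quartile factors the largest change is 0.0439%, too small to see on this axis.

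Calls of other genes moved only where library size alone was the scaling, among edgeR fits with the low-count filter. With TMM factors the same 3 genes passed with and without the row. With library size alone 43 genes passed with the row in the totals (0.345% of tested genes), 3 higher (0.024%) and 40 lower (0.321%) in EU. Without the row 29 passed (0.232%), 1 higher (0.00801%) and 28 lower (0.224%). All 29 were among the 43. The genes called higher, named here after their values were seen, were Hlf, a clock-related transcription factor, Fasn, the fatty acid synthase, and the histone gene Hist1h4d. Hlf had 2735, 5634 and 8657 counts in EU and 45, 34 and 44 in PBS and stayed past the threshold (edgeR adjusted p = 0.035 with the row and 0.048 without). Fasn had 14181, 35722 and 33152 counts in EU and 396, 279 and 491 in PBS and did not (0.047 and 0.066), nor did Hist1h4d, with 459, 2278 and 1071 counts in EU and none in PBS (0.044 and 0.054).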

How the data were processed

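RNA counts of 6 pulldown libraries, 3 EU and 3 PBS, were used. The authors deposited 1 table of whole-number counts per Ensembl gene ID that were not normalized. Tools in the submitters' processing notes, listed without roles, were STAR 2.7.10b, featureCounts 2.0.1, UMI-tools 1.1.2 and bcl2fastq 2.20.0, and the build was GRCm39. Whether counting used strand, and where reads matching several places went, is not stated in these notes, so how near-identical copies shared reads is unknown. That molecular identifiers were counted is read from the sheet name. IDs were matched to symbols of a gene name table (52083 matched, 3333 did not), and gene classes came from GENCODE M21. No coordinates are used. The gene and the lists were chosen with earlier results of these data known.

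Shares and CPM use library totals over all rows, and 0 rows name no gene. The main test was edgeR 4.0.16 (quasi-likelihood, TMM, filterByExpr, group only, R 4.3.3), adjusted over all tested genes with a threshold of 0.05, and checked on simulated counts with 200 changed genes. The simulation gave every gene the same relative scatter, so it does not show how well the test works on these data. For single values, two-sided exact permutation tests were used; Clopper-Pearson intervals and limits for 0 counts cover counting error only. No library was a copy of another by a chi-square test of counts within groups. Alternatives were other factors (RLE, upper quartile, library size), filters, DESeq2 1.42.0, limma-voom (limma 3.58.1), a replicate block, leaving out each library and leaving out the gene or the mitochondrial genes.

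Named genes were the row, the 10 next in counts, the 5 most like it by centred log2 CPM (prior count 2, at least 50 CPM), genes past the threshold, genes whose call changed without the row (0 with TMM factors), and members of the ribosomal and structural RNA lists with a count or the 4 most counted of other lists. Not all list members are printed.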

Additional observations from a re-analysis of the deposited data

How the results depend on the processing

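The share difference of ENSMUSG00000119584 kept its negative sign under 3 other denominators and ranged from -4.29 to 1.45 percentage points when 1 library was left out, positive without EU replicate 2 (1.45) and without PBS replicate 1 (0.44). Its log2 fold passed no threshold in any fit. The sign turned with RLE factors (-0.00027), library size alone (-0.12), DESeq2 (-0.00027) and limma-voom (-0.0078), and leaving out 1 library gave -0.39 to 0.39, with -0.39 without EU replicate 1 and -0.026 without PBS replicate 2. The cause was not tested. A count of 3 was worth up to 7.26 CPM in PBS, which limits what low genes can show there.

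Calls over all genes, 0 higher and 3 lower in EU (1617 and 531 at an unadjusted p below 0.05), moved with the fit. DESeq2 gave 493 and 435 and limma-voom 222 and 25, the same numbers with the row left out. Without a low-count filter the numbers were 121 and 336, and 123 and 340 with the row left out. With at least 10 counts in every library they were 35 and 86, and with library size alone 3 and 40, or 1 and 28 without the row. RLE factors gave 0 and 7 with or without the row. Leaving out 1 library gave 0 to 0 higher and 0 to 11 lower (11 without EU replicate 1, 0 without any PBS replicate); the low-count filter was redone there. The fits that pair each method with leaving out the row were added after the data were seen.

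A fit with replicate numbers as a block called 148 genes higher and 49 lower. It gave the row a log2 fold of 0.0078 with an SE of 0.22, against an SE of 0.46 without the block. Same-numbered libraries deviated together only weakly (r = 0.074, 0.051 and 0.034 over tested genes, and 0.150, 0.191 and 0.094 over genes with at least 10 counts in every library). Each EU library correlated best with its own number. The labels do not say that equal numbers mark pairs, and these values cannot decide it, so the main test used group only. Under the block, without a low-count filter and with DESeq2, mt-Rnr1, Ncan and Ckb passed the threshold, and mt-Rnr2 passed under the first 2 of these. Malat1 and mt-Co1 also passed without the filter (adjusted p = 0.017 each in edgeR), and Ncan and Ckb with at least 10 counts in every library (0.021 and 0.033). Gm10800 and Gm10801 did not pass when any PBS replicate was left out, and Gm10718 did not pass when any library other than EU replicate 1 was left out.

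On leaving out the row, the shift of EU against PBS effective library size (log2, -9.1e-05 with TMM) was -0.00052 with upper-quartile factors and 0.020 with library size alone. Summed lists kept their direction over totals without the row. Among single genes with log2 folds near 0, signs turned as follows. With RLE factors mt-Cytb, Il6st and Mt1 measured -0.077, -0.082 and -0.037, and the same values with DESeq2. With limma-voom mt-Cytb, Il6st, Txnip and Mt1 measured -0.028, -0.13, -0.10 and -0.19. With library size alone mt-Cytb, mt-Nd2, Il6st, Txnip, Aldoc and Mt1 measured -0.16, -0.039, -0.18, -0.076, -0.019 and -0.15. Mt1 was -0.047 with the block and Il6st -0.0095 with at least 10 counts in every library. Without a filter mt-Nd5 was 0.032 and Igsf11 0.076. Leaving out 1 library gave -0.13 to 0.13 for mt-Cytb (below 0 without EU replicate 1 or 3), -0.27 to 0.030 for mt-Nd5 (above 0 without PBS replicate 3), -0.38 to 0.43 for Il6st (below 0 without EU replicate 1, PBS replicate 2 or 3), -0.27 to 0.57 for Txnip (EU replicate 1, PBS replicate 2), -0.17 to 0.57 for Aldoc (EU replicate 1), -0.37 to 0.13 for Igsf11 (above 0 without EU replicate 2, PBS replicate 1 or 3) and -0.26 to 0.35 for Mt1 (EU replicate 1 or 3, PBS replicate 2).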
